A study of Mus musculus with 8 samples.

Results

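Integrins, cadherins and protocadherins are the surface receptors by which a cell holds on to its matrix and to its neighbours. Their transcripts were compared in adipose-derived stem cells, progenitors in the stroma of fat from which adipocytes can form, taken from 3 white fat depots of mice. The members are the rows of the deposited read-count table whose symbol names an integrin alpha subunit, an integrin beta subunit, a numbered cadherin or a protocadherin. They came to 114 of 17968 rows, made up of 17 integrin alpha subunits, 8 integrin beta subunits, 22 cadherins and 67 protocadherins. They were picked by symbol, with earlier results of these data known. There were 6 libraries, 2 for each of the groups. SWAT names stem cells of the subcutaneous fat of the groin (inguinal), EWAT those of the fat around the epididymis and NWAT those of the fat around the kidney. The mice were C57BL/6J males, wild type, fed chow, with no transgene or treatment named. Fat was digested with collagenase and the stem cells were sorted by flow cytometry, with surface markers that the sources do not list. Mesenteric fat is not analysed here.

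An integrin is a pair of 1 alpha and 1 beta chain that binds matrix proteins such as collagen, laminin and fibronectin outside the cell and, through talin and kindlin, the actin skeleton inside it. Classical cadherins bind cadherins of the neighbouring cell in the presence of calcium and are tied to actin by catenins. Protocadherins are best known from neurons, where the clustered alpha, beta and gamma genes give each cell its own set of surface labels and the non-clustered genes act in cell sorting and migration.

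Library totals lay between 20026413 and 20638724 estimated counts. Over genes, log2 expression correlated at 0.988 to 0.991 between libraries of 1 depot and at 0.924 to 0.963 between depots. The 10 listed markers of adipose progenitors were all detected. They summed to 65932 to 70435 CPM in SWAT, 30541 to 32587 CPM in EWAT and 29431 to 29882 CPM in NWAT (CPM, each library's counts divided by its TMM-scaled total and set to a common total). Their detection alone does not show how pure the sorted cells were. It is not stated that the 2 libraries of a depot are from different mice, so the p-values speak of the spread between these samples alone, and that spread may be technical. In bulk RNA, fewer cells of a type and less RNA per cell cannot be told apart.

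Of the 114 members, 87 passed the filter on low counts and were tested. The filter keeps a gene that is well counted in the libraries of 1 depot alone, and the highest count of any of the 27 others was 19.8. In edgeR's quasi-likelihood test of any difference among the 3 depots (the joint test), 47 of them had a Benjamini-Hochberg adjusted p below 0.05, which is the threshold used throughout. That is 54.0% of the tested members, against 41.7% of all 13694 genes tested. Of these, 31 had their highest mean in SWAT, 10 in EWAT and 6 in NWAT. SWAT over EWAT, 31 members were higher and 11 lower, where 18% and 18.7% of all genes were (36.7% in either direction), and the members' median log2 fold change was 0.31 beside -0.01 over all genes. SWAT over NWAT, 18 were higher and 4 lower, where 9.07% and 9.83% of all genes were (18.9% in either direction), with a median of 0.21 beside -0.02. EWAT over NWAT, 10 were higher and 18 lower, where 13.3% and 14% of all genes were (27.3% in either direction), with a median of -0.04 beside 0.01. The number of members called higher in SWAT depends on the scaling, as does that of all genes. Library totals alone in place of TMM scaling move the median of all genes by -0.24 on the log2 scale SWAT over EWAT. With library totals, 20 members were higher SWAT over EWAT, where 1344 of all 13694 genes were. SWAT over NWAT, 11 members were lower, where 3199 of all genes were. No member's call changed direction in any alternative tried.

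**Figure D1:**
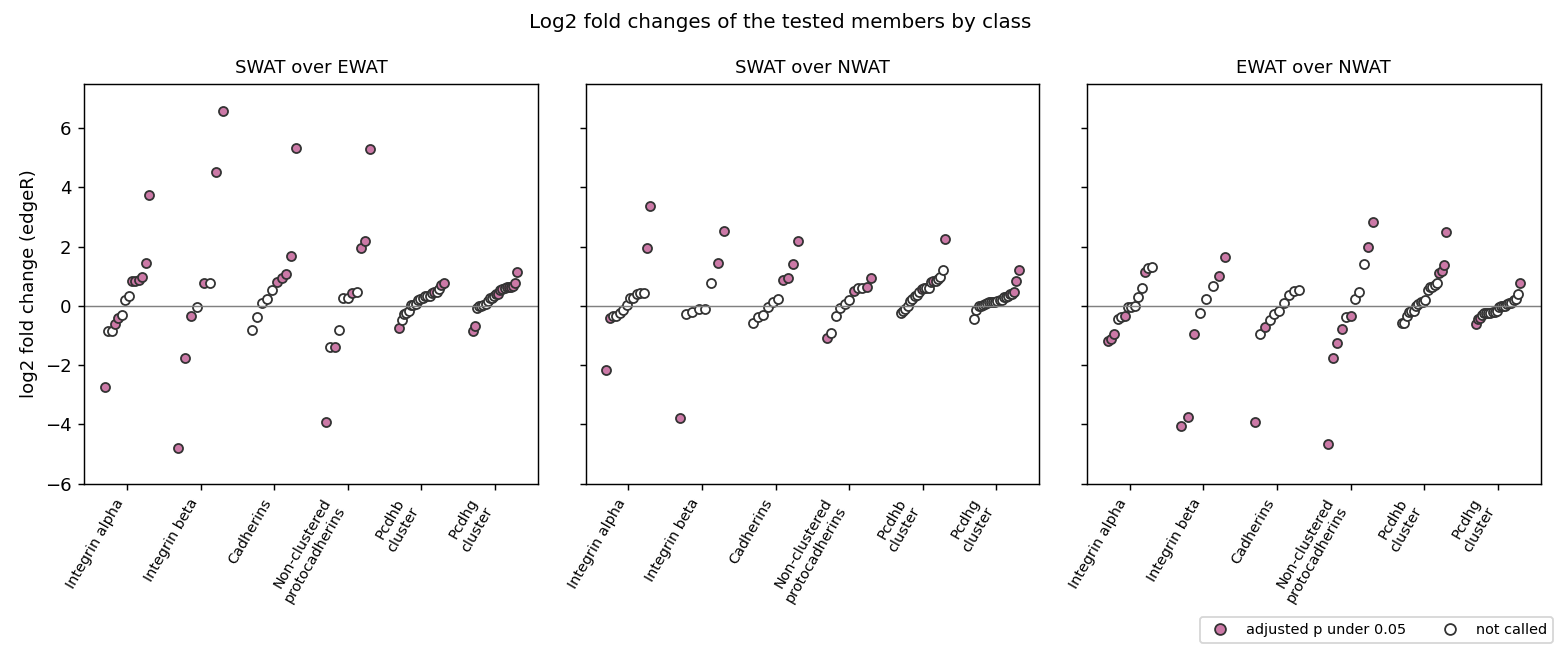
Log2 fold change (y axis, edgeR) of each tested integrin, cadherin and protocadherin by class in SWAT over EWAT, SWAT over NWAT and EWAT over NWAT, with filled points for an adjusted p under 0.05; the alpha protocadherin cluster is not drawn. SWAT over EWAT the integrins spread from -4.797 to 6.56, and the gamma protocadherins from -0.86 to 1.14.

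There were 7 members that differed in each of the 3 pairs of depots, where 5.41% of all genes did. They were the integrin genes Itgb7, Itgb8 and Itga8, the cadherin gene Cdh9 and the protocadherin genes Pcdh9, Pcdh12 and Pcdh20. On GRCm38.p6 RefSeq places 6 of them at chr15:102215994-102233405 (Itgb7), chr12:119162803-119238276 (Itgb8), chr2:12106632-12301985 (Itga8), chr15:16728550-16857138 (Cdh9), chr14:93013700-93892834 (Pcdh9) and chr14:88464743-88471396 (Pcdh20). Among them, Pcdh20, Cdh9 and Itgb7 shared 1 order of depots and were close to absent from EWAT. Pcdh20, a non-clustered protocadherin, had 67.8 and 55.6 CPM in SWAT, 1.68 and 1.44 CPM in EWAT and 41.3 and 38.0 CPM in NWAT. Cdh9, a type II classical cadherin known from synapses of the mouse hippocampus, had 16.5 and 20.6 CPM in SWAT, 0.514 and 0.404 CPM in EWAT and 7.59 and 6.50 CPM in NWAT. Itgb7, the chain that leukocytes pair with alpha4 or alphaE for homing to the gut, had 46.1 and 33.0 CPM in SWAT, 0.514 and 0.315 CPM in EWAT and 8.25 and 5.58 CPM in NWAT. In each of these genes both SWAT libraries lay above both NWAT libraries, which lay above both EWAT libraries.

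Promoter windows were read for Pcdh20, Cdh9 and Itgb7, chosen with their values known. Those of Cdh9 and Itgb7 overlapped their own RefSeq gene and were dropped, so only the bases before the start of Pcdh20 are shown. The stretch is from RefSeq (GRCm38.p6), runs 5′ to 3′ on the minus strand, ends where the gene begins and has its CG dinucleotides in capitals. It lies at chr14:88471397-88471646.
Pcdh20: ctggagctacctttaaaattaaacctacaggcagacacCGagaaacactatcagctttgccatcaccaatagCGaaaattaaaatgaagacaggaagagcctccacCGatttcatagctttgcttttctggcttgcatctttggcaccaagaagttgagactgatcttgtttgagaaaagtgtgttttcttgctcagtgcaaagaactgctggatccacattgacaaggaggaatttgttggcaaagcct

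It held 3 CG in 250 bases beside a median of 6 and quartiles of 2 and 16 over 32851 RefSeq promoter windows of the same length, so its count lay between the quartiles. This describes the letters and says nothing of a binding site.

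The log2 fold change SWAT over EWAT was 5.30 ± 0.17 for Pcdh20 (SE, edgeR adjusted p = 1.54e-09), 5.32 ± 0.24 for Cdh9 (1.71e-08) and 6.56 ± 0.31 for Itgb7 (1.38e-07). From the counts alone, Cdh9 was 40.6-fold higher in SWAT than in EWAT (95% exact counting interval 26.1 to 66.8) and Itgb7 95.6-fold higher (60.2 to 162). Such intervals cover counting error only. Every difference written as a value ± SE for a pair of depots, here and in what follows, is a log2 fold change. SWAT over NWAT, the log2 fold change was 0.64 ± 0.12 for Pcdh20 (edgeR adjusted p = 0.00252), 1.40 ± 0.16 for Cdh9 (9.23e-05) and 2.51 ± 0.21 for Itgb7 (2.03e-05). EWAT over NWAT, it was -4.66 ± 0.17 for Pcdh20 (edgeR adjusted p = 3.88e-08), -3.93 ± 0.25 for Cdh9 (8.26e-07) and -4.05 ± 0.36 for Itgb7 (2.45e-05). Perirenal cells thus held intermediate levels in all 3 genes. The call of Pcdh20 SWAT over NWAT ended in some alternatives, at an adjusted p of 0.0676 to 0.0759 on the FPKM scales (limma on log2 FPKM plus a pseudocount). The other 8 of these calls held in every alternative, which in what follows is written as held throughout.

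**Figure D2:**
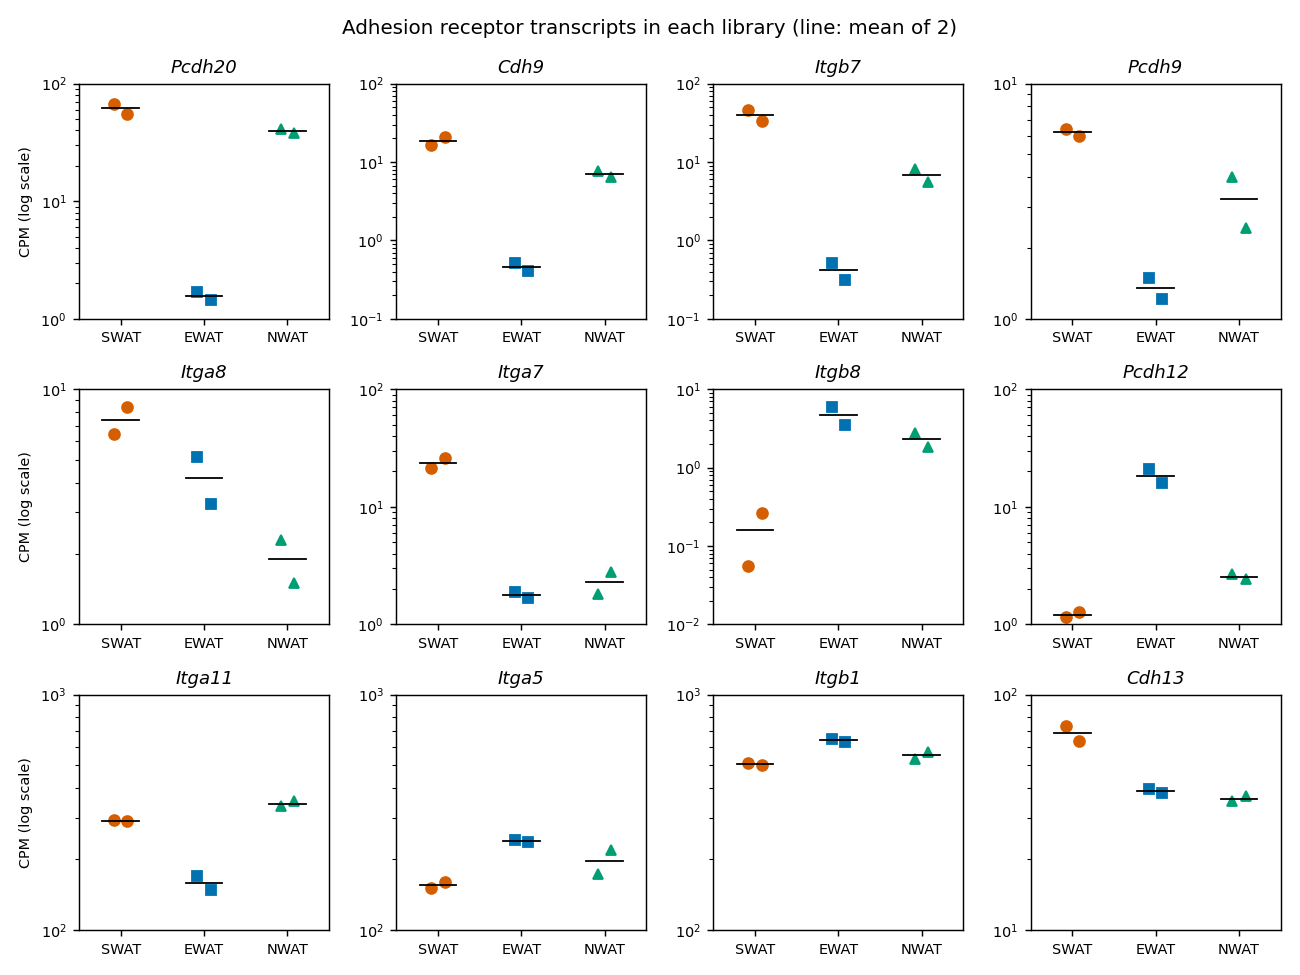
CPM per library (log axis, TMM-scaled) of 12 adhesion receptor genes in SWAT, EWAT and NWAT, with a point for each library and a line at the mean of 2. Pcdh20, Cdh9 and Itgb7 fall below 2 CPM in EWAT, Itgb8 and Pcdh12 are highest there, and Itga7 is above 20 CPM in SWAT alone.

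Pcdh9, a delta1 protocadherin of neural tissue, followed the same order with smaller steps, at 6.42 and 6.01 CPM in SWAT, 1.49 and 1.21 CPM in EWAT and 4.01 and 2.43 CPM in NWAT. Its log2 fold change was 2.19 ± 0.28 SWAT over EWAT (edgeR adjusted p = 9.41e-05), a call that held throughout. It was 0.95 ± 0.25 SWAT over NWAT (edgeR adjusted p = 0.0218) and -1.25 ± 0.29 EWAT over NWAT (0.00829). The call of Pcdh9 SWAT over NWAT ended in some alternatives, at an adjusted p of 0.185 without NWAT replicate 2, 0.110 without SWAT replicate 1, 0.0792 without SWAT replicate 2 and 0.0830 to 0.125 on the FPKM scales. EWAT over NWAT the adjusted p became 0.107 without NWAT replicate 1 and 0.0779 to 0.118 on the FPKM scales.

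Pcdh12 and Itgb8 were highest in EWAT instead. Pcdh12, a protocadherin of endothelial junctions, had 1.15 and 1.27 CPM in SWAT, 20.8 and 15.8 CPM in EWAT and 2.67 and 2.43 CPM in NWAT. Its log2 fold change was -3.91 ± 0.22 SWAT over EWAT (edgeR adjusted p = 8.77e-08) and 2.84 ± 0.19 EWAT over NWAT (9.74e-07), and both held throughout. SWAT over NWAT it was -1.07 ± 0.26 (edgeR adjusted p = 0.0122). The call of Pcdh12 SWAT over NWAT ended in some alternatives, at an adjusted p of 0.0779 without NWAT replicate 1, 0.0808 without SWAT replicate 1, 0.0587 without SWAT replicate 2 and 0.0993 to 0.134 on the FPKM scales. Itgb8, which pairs with alphav and activates latent TGF-beta, had 1 and 5 counts in SWAT, 125 and 77 counts in EWAT and 57 and 38 counts in NWAT. By these counts it was 28.7-fold lower in SWAT than in EWAT (95% exact counting interval 12.9 to 79.1) and 14.2-fold lower in SWAT than in NWAT (6.27 to 39.6). The fitted log2 fold changes were -4.797 ± 0.53 SWAT over EWAT (edgeR adjusted p = 3.55e-05), -3.77 ± 0.57 SWAT over NWAT (0.000773) and 1.02 ± 0.34 EWAT over NWAT (0.0448). The call of Itgb8 EWAT over NWAT ended in some alternatives, at an adjusted p of 0.246 without EWAT replicate 1, 0.0714 without NWAT replicate 1, 0.238 without NWAT replicate 2, 0.0742 in DESeq2 and 0.0793 to 0.0830 on the FPKM scales. The sum of 8 markers of mesothelium, the lining of visceral fat, ranked the depots like Itgb8 and Pcdh12. It was 3.62 to 4.64 CPM in SWAT, 19.1 to 27.1 CPM in EWAT and 11.3 to 12.9 CPM in NWAT. Of the 6 tested, 1 was higher and 5 lower SWAT over EWAT, and 0 were higher and 4 lower SWAT over NWAT. EWAT over NWAT only 1 was higher and 1 lower. None of the 8 was at 0 in every library, and their part in the result was not tested.

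Among the integrins 22 of 25 members were tested and 15 passed the joint test, with SWAT over EWAT 9 higher and 6 lower, SWAT over NWAT 4 higher and 3 lower and EWAT over NWAT 3 higher and 7 lower. That was 68.2% in the joint test, against 41.7% of all genes. In the 3 pairs it was 68.2%, 31.8% and 45.5%, against 36.7%, 18.9% and 27.3% of all genes. Levels of different genes are compared as deposited FPKM, which divides by transcript length. These values are not TMM-scaled, so depots are compared by CPM. On log2 (FPKM + 1) the log2 fold changes of all genes lay below the TMM-scaled ones. The median shift was -0.22 SWAT over EWAT and -0.17 SWAT over NWAT. Itgb1, the common partner of the collagen, laminin and fibronectin receptor chains, had the highest FPKM of all members in EWAT and NWAT and the next highest after the protocadherin gene Pcdhgc3 in SWAT, at 109 ± 1.26 FPKM in SWAT, 162 ± 0.940 FPKM in EWAT and 135 ± 5.07 FPKM in NWAT (SD, n = 2). Itgb5, a partner of alphav in vitronectin binding, followed among the integrins at 65.4 ± 5.82 FPKM in SWAT, 78.9 ± 1.01 FPKM in EWAT and 90.1 ± 8.05 FPKM in NWAT. Itgb1 made up 55.1% ± 2.63 in SWAT, 64.8% ± 0.319 in EWAT and 56.0% ± 2.90 in NWAT of the summed beta chain FPKM. Itgb1 had 510.1 and 504 CPM in SWAT, 649.9 and 628 CPM in EWAT and 534 and 568 CPM in NWAT, with a log2 fold change of -0.33 ± 0.11 SWAT over EWAT (edgeR adjusted p = 0.0326). The call of Itgb1 SWAT over EWAT ended in some alternatives, at an adjusted p of 0.0570 without EWAT replicate 1, 0.0551 without NWAT replicate 1, 0.0550 without NWAT replicate 2, 0.119 without SWAT replicate 1 and 0.141 without SWAT replicate 2. Itgb5 had 256 and 219 CPM in SWAT, 249 and 238 CPM in EWAT and 303 and 269.97 CPM in NWAT but did not pass the joint test (edgeR adjusted p = 0.139).

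The 4 collagen-binding alpha chains, Itga1, Itga2, Itga10 and Itga11, all passed the joint test and were all higher SWAT over EWAT. EWAT over NWAT 3 were lower, and SWAT over NWAT none passed. Itga11, the receptor chain for fibrillar collagen in fibroblasts, had 293 and 289.5 CPM in SWAT, 169.5 and 148 CPM in EWAT and 335 and 353 CPM in NWAT. Both EWAT libraries lay below the other 4, with log2 fold changes of 0.88 ± 0.11 SWAT over EWAT (edgeR adjusted p = 9.86e-05) and -1.12 ± 0.11 EWAT over NWAT (2.26e-05) that held throughout. Itga2, a collagen receptor chain of platelets and epithelia, had 9.21 and 9.12 CPM in SWAT, 4.34 and 2.34 CPM in EWAT and 8.83 and 6.50 CPM in NWAT, with 1.46 ± 0.26 SWAT over EWAT (edgeR adjusted p = 0.00147) and -1.20 ± 0.26 EWAT over NWAT (0.00653). EWAT over NWAT its adjusted p became 0.0637 without NWAT replicate 1 and 0.0588 on an FPKM scale. Itga10, a chain best known from cartilage, had 4.61 and 4.69 CPM in SWAT, 2.57 and 2.16 CPM in EWAT and 4.29 and 4.76 CPM in NWAT, with 0.98 ± 0.22 SWAT over EWAT (edgeR adjusted p = 0.00446) and -0.94 ± 0.21 EWAT over NWAT (0.00732). EWAT over NWAT its adjusted p became 0.0565 without NWAT replicate 2. Itga1, which prefers basement membrane collagen, had 7.29 and 10.2 CPM in SWAT, 5.60 and 4.09 CPM in EWAT and 7.25 and 5.92 CPM in NWAT, with 0.85 ± 0.22 SWAT over EWAT (edgeR adjusted p = 0.0105). The call of Itga1 SWAT over EWAT ended in some alternatives, at an adjusted p of 0.0601 without EWAT replicate 2, 0.122 without SWAT replicate 2 and 0.0908 to 0.142 on the FPKM scales.

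The make-up of the alpha chains differed between depots. Itga11 supplied 42.7% ± 0.790 in SWAT, 25.9% ± 0.765 in EWAT and 44.3% ± 0.270 in NWAT of the summed alpha chain FPKM (SD, n = 2). Itga5, the fibronectin receptor chain, supplied 25.4% ± 0.795 in SWAT, 43.7% ± 2.01 in EWAT and 28.1% ± 3.47 in NWAT. The fibronectin receptor chain led the alpha chains in EWAT and the collagen receptor chain led them in SWAT and NWAT. Itga5 had 150.1 and 159 CPM in SWAT, 242 and 235 CPM in EWAT and 173 and 219 CPM in NWAT, with -0.63 ± 0.12 SWAT over EWAT (edgeR adjusted p = 0.00229), which held throughout. Itgav, the vitronectin receptor chain, supplied 14.8% ± 0.416 in SWAT, 14.4% ± 0.551 in EWAT and 14.3% ± 1.45 in NWAT. It did not pass the joint test (edgeR adjusted p = 0.0743) and had -0.33 ± 0.11 EWAT over NWAT (edgeR adjusted p = 0.0442). The call of Itgav EWAT over NWAT ended in some alternatives, at an adjusted p of 0.163 without EWAT replicate 2, 0.259 without NWAT replicate 1, 0.0999 without NWAT replicate 2, 0.0792 without SWAT replicate 1, 0.0784 without SWAT replicate 2, 0.0617 with library totals alone and 0.0680 to 0.0869 on the FPKM scales. Itga9, a receptor chain for tenascin, named after its values were seen, had 81.9 and 74.9 CPM in SWAT, 113 and 97.4 CPM in EWAT and 112 and 98.8 CPM in NWAT, with -0.43 ± 0.12 SWAT over EWAT (edgeR adjusted p = 0.0134) and -0.43 ± 0.12 SWAT over NWAT (0.0230). Its adjusted p SWAT over EWAT was 0.123 without SWAT replicate 2, and SWAT over NWAT it was 0.196 without NWAT replicate 1, 0.0730 without SWAT replicate 1 and 0.195 without SWAT replicate 2.

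**Figure D3:**
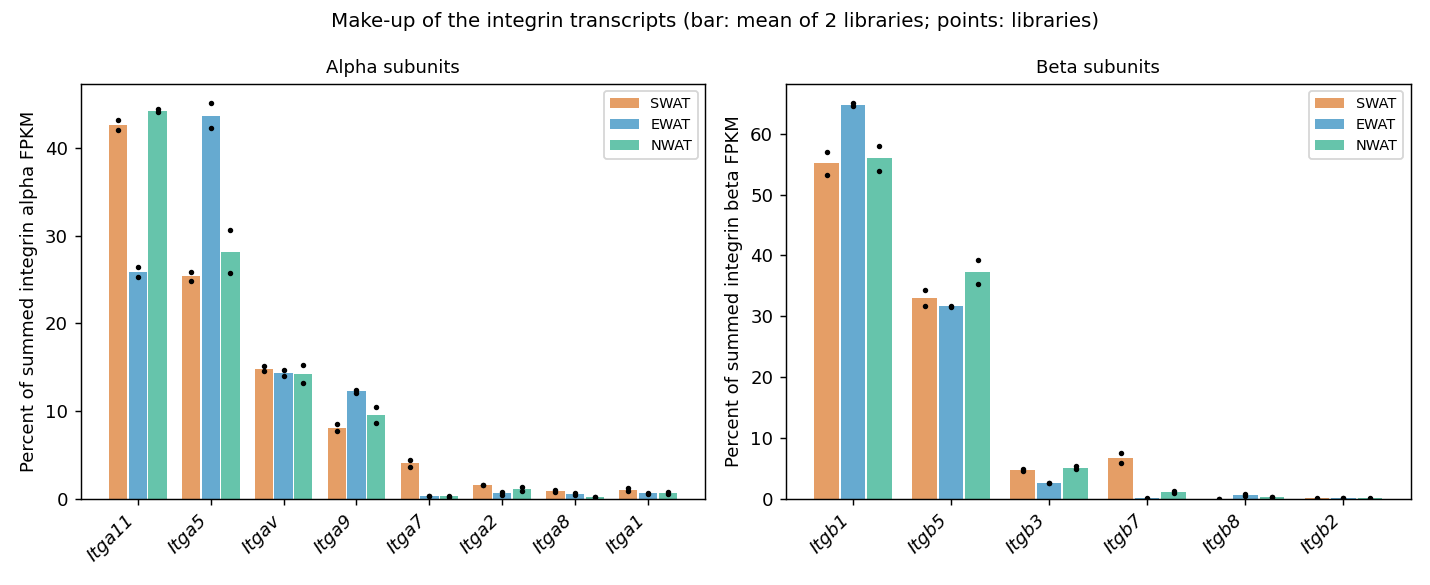
Share of each chain in the summed FPKM of integrin alpha subunits (left, percent) and beta subunits (right, percent) in SWAT, EWAT and NWAT, with bars at the mean of 2 libraries and points for the libraries. Itga11 leads the alpha chains in SWAT and NWAT, and Itga5 leads them in EWAT.

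The laminin-binding chains went different ways. Itga7, the laminin receptor chain of muscle, had 21.3 and 26.0 CPM in SWAT, 1.87 and 1.66 CPM in EWAT and 1.81 and 2.77 CPM in NWAT. Its log2 fold change was 3.74 ± 0.21 SWAT over EWAT (edgeR adjusted p = 9.25e-08) and 3.37 ± 0.20 SWAT over NWAT (6.79e-07), and both held throughout, while EWAT and NWAT overlapped (-0.37 ± 0.25, edgeR adjusted p = 0.297). Its exons overlap those of Mettl7b on the other strand, and whether counting used strand is unknown. Mettl7b had 0 to 3 counts per library, and the part of the overlap in the level of Itga7 was not tested. Itga3, an epithelial laminin receptor chain named after its values were seen, had 3 and 4 counts in SWAT, 25 and 32 counts in EWAT and 14 and 22 counts in NWAT, which was 6.94-fold lower in SWAT than in EWAT (95% exact counting interval 3.16 to 18.03, edgeR adjusted p = 0.00166). Itga6 did not pass the joint test (edgeR adjusted p = 0.770).

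Itga8, a receptor chain for nephronectin found in kidney mesenchyme and smooth muscle, had 6.47 and 8.39 CPM in SWAT, 5.14 and 3.24 CPM in EWAT and 2.29 and 1.504 CPM in NWAT, with no overlap between depots. Its log2 fold change was 1.97 ± 0.29 SWAT over NWAT (edgeR adjusted p = 0.000568), which held throughout, 0.83 ± 0.26 SWAT over EWAT (0.0278) and 1.14 ± 0.30 EWAT over NWAT (0.0151). The call of Itga8 SWAT over EWAT ended in some alternatives, at an adjusted p of 0.157 without EWAT replicate 2, 0.195 without SWAT replicate 2, 0.0881 with library totals alone and 0.104 to 0.160 on the FPKM scales. EWAT over NWAT the adjusted p became 0.0761 without EWAT replicate 1, 0.119 without NWAT replicate 2 and 0.0605 to 0.0997 on the FPKM scales. The sum of 8 markers of pericytes and smooth muscle, none at 0 in every library, ranked the depots like Itga8. It was 131 to 184 CPM in SWAT, 65.6 to 68.9 CPM in EWAT and 26.7 to 31.7 CPM in NWAT. The single markers did not all share this order. SWAT over EWAT 4 were higher and 4 lower, with a median log2 fold change of -0.19. Among them Abcc9 averaged 97.0 ± 22.6 CPM in SWAT, 4.99 ± 1.20 CPM in EWAT and 3.36 ± 0.641 CPM in NWAT. Notch3 averaged 42.5 ± 10.96 CPM in SWAT, 13.2 ± 1.69 CPM in EWAT and 15.6 ± 0.802 CPM in NWAT. The contractile gene Myh11 averaged 4.45 ± 1.09 CPM in SWAT, 25.4 ± 2.35 CPM in EWAT and 1.46 ± 0.629 CPM in NWAT. Their part in the levels of Itga7, Itga8 and Itga1 was not tested.

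Of the remaining beta chains, Itgb3, the partner of alphav and of the platelet chain alphaIIb, had 60.9 CPM in both SWAT libraries, 37.4 and 34.8 CPM in EWAT and 67.5 and 72.4 CPM in NWAT. It was low in EWAT like the collagen-binding chains, with 0.75 ± 0.10 SWAT over EWAT (edgeR adjusted p = 0.000122) and -0.95 ± 0.10 EWAT over NWAT (2.76e-05), and both held throughout. The 5 platelet markers summed to 7.81 to 8.83 CPM in SWAT, 6.58 to 8.40 CPM in EWAT and 5.53 to 7.62 CPM in NWAT, ranges that overlap, and none was at 0 in every library. Itgb6, an alphav partner of epithelia named after its values were seen, had 24 and 20 counts in SWAT, 1 count in each EWAT library and 15 and 14 counts in NWAT. It was 25.8-fold higher in SWAT than in EWAT (95% exact counting interval 6.74 to 219.9, edgeR adjusted p = 0.000229).

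Among the members that mark blood cells, Itgb2 and its alpha partners were scarce. Itgb2, the beta chain of leukocyte receptors, had 4 and 10 counts in SWAT, 28 counts in both EWAT libraries and 10 and 7 counts in NWAT. Its log2 fold change was -1.76 ± 0.48 SWAT over EWAT (edgeR adjusted p = 0.0143) and 1.63 ± 0.46 EWAT over NWAT (0.0218). The call of Itgb2 SWAT over EWAT ended in some alternatives, at an adjusted p of 0.0538 without EWAT replicate 2, 0.132 without SWAT replicate 1 and 0.0643 in DESeq2. EWAT over NWAT the adjusted p became 0.0572 without EWAT replicate 1, 0.0840 without EWAT replicate 2, 0.0763 without NWAT replicate 1, 0.140 without NWAT replicate 2 and 0.0979 in DESeq2. Its partner chains were as scarce, with 10 and 14 counts in SWAT, 21 and 30 counts in EWAT and 8 and 12 counts in NWAT for Itgal, 9.17 and 12.5 counts in SWAT, 24.6 and 21.6 counts in EWAT and 12.1 and 6.38 counts in NWAT for Itgam and 2 and 0 counts in SWAT, 10 and 7 counts in EWAT and 1 count in each NWAT library for Itgax. Itgal and Itgam did not pass the joint test (edgeR adjusted p = 0.0709 and 0.0798), Itgax and Itgae were not tested, and Itgad had no count in any library. Macrophage markers moved with Itgb2, at a summed 13.1 to 22.5 CPM in SWAT, 38.6 to 39.8 CPM in EWAT and 19.6 to 21.4 CPM in NWAT over 10 genes, 7 of which were lower SWAT over EWAT and 8 higher EWAT over NWAT. None was at 0 in every library, and their part in the result was not tested.

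Itgb7 is also a gene of lymphocytes, whose markers were scarce. The 5 listed genes in the table summed to 1.48 to 2.37 CPM in SWAT, 1.68 to 2.02 CPM in EWAT and 1.62 to 1.99 CPM in NWAT, ranges that overlap. Only 2 of them were tested, and 0 passed the joint test. The T cell gene Cd3g had 0 counts in both SWAT libraries, 1 and 0 counts in EWAT and 0 counts in both NWAT libraries. The B cell gene Ms4a1 had 0 counts in both SWAT libraries, 1 count in each EWAT library and 3 and 0 counts in NWAT. The SWAT sums came from the rest of the list, Cd3e, Cd79a and Cd2. The part of lymphocytes in the level of Itgb7 was not tested. The alpha partner Itga4 had 4.33 and 4.799 CPM in SWAT, 6.44 and 4.81 CPM in EWAT and 6.01 and 5.58 CPM in NWAT but did not pass the joint test (edgeR adjusted p = 0.312). Its exons overlap those of Cerkl on the other strand, and whether counting used strand is unknown. Cerkl had 4.72 and 4.21 counts in SWAT, 16.09 and 25.64 counts in EWAT and 16.74 and 11.25 counts in NWAT. As a share of the beta chain FPKM, Itgb7 made up 6.72% ± 1.21 in SWAT, 0.0641% ± 0.0163 in EWAT and 1.09% ± 0.3004 in NWAT.

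**Figure D4:**
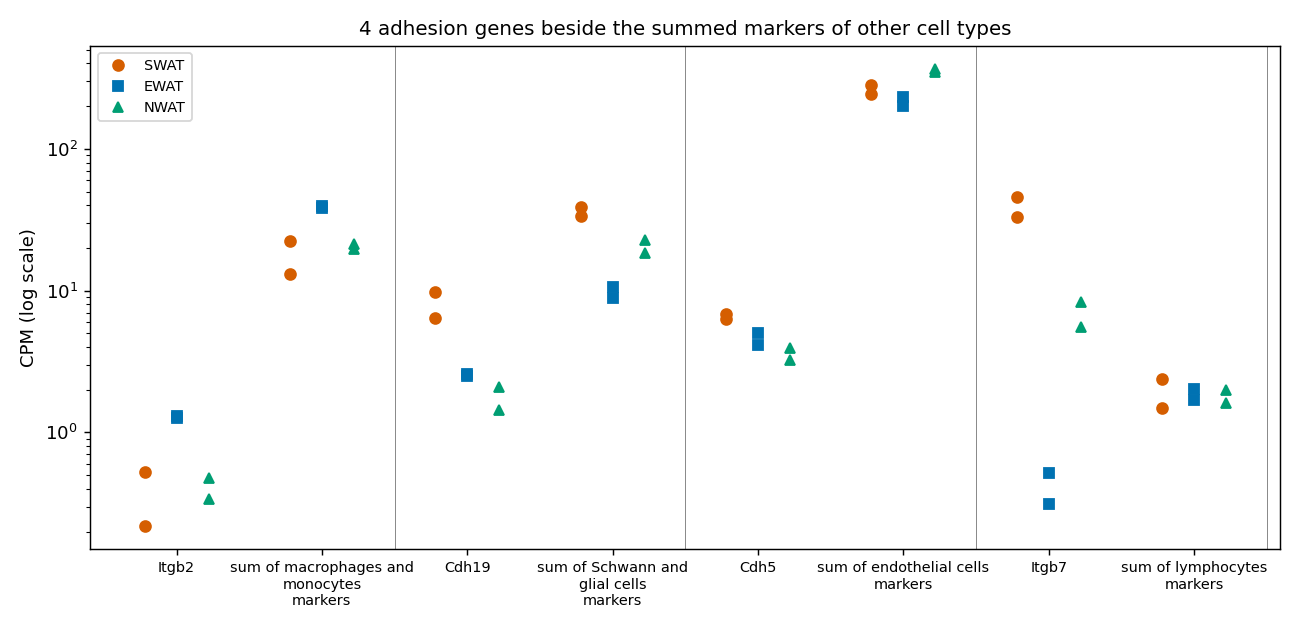
CPM per library (log axis) of Itgb2, Cdh19, Cdh5 and Itgb7, each beside the summed CPM of the listed markers of macrophages, Schwann cells, endothelial cells and lymphocytes, in SWAT, EWAT and NWAT. The lymphocyte sums lie between 1.48 and 2.37 CPM in every library, while Itgb7 spans 0.315 to 46.1 CPM.

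Among the 22 cadherins 10 were tested and 5 passed the joint test, namely Cdh9, Cdh19, Cdh13, Cdh2 and Cdh5, each with its highest mean in SWAT. SWAT over EWAT 5 were higher and 0 lower, and SWAT over NWAT 4 were higher and 0 lower. EWAT over NWAT 0 were higher and 2 lower. The share called was above that of all genes in the joint test (41.7%), SWAT over EWAT (36.7%) and SWAT over NWAT (18.9%). EWAT over NWAT it was below that of all genes (27.3%). Of the 5 that passed the joint test, the call of Cdh5 was not SWAT over EWAT (edgeR adjusted p = 0.0543) but SWAT over NWAT. The other call SWAT over EWAT was that of Cdh7, named after its values were seen, which had 1.21 CPM in both SWAT libraries, 0.607 and 0.539 CPM in EWAT and 1.05 and 1.16 CPM in NWAT. Its edgeR adjusted p was 0.0468, the joint test was not passed (edgeR adjusted p = 0.0761), and the call ended in 13 alternatives, at an adjusted p of up to 0.231. The 12 cadherins not tested had at most 12.1 counts in a library, among them the epithelial E-cadherin gene Cdh1. Cdh13, the T-cadherin that lacks a cytoplasmic tail and binds adiponectin, had 73.6 and 63.8 CPM in SWAT, 39.7 and 38.1 CPM in EWAT and 35.2 and 37.1 CPM in NWAT. Its log2 fold change was 0.82 ± 0.11 SWAT over EWAT (edgeR adjusted p = 0.000102) and 0.93 ± 0.11 SWAT over NWAT (7.97e-05), and both held throughout. Cdh2, the N-cadherin of mesenchymal cells, had 6.25 and 6.54 CPM in SWAT, 3.46 and 3.19 CPM in EWAT and 5.30 and 5.73 CPM in NWAT, with 0.94 ± 0.18 SWAT over EWAT (edgeR adjusted p = 0.00213) and -0.73 ± 0.19 EWAT over NWAT (0.0130). Both EWAT libraries lay below the other 4. EWAT over NWAT the adjusted p became 0.0616 without EWAT replicate 2, 0.0501 without NWAT replicate 1 and 0.0861 without NWAT replicate 2. Cdh11, a cadherin of mesenchyme, had 25.9 and 41.9 CPM in SWAT, 27.7 and 30.01 CPM in EWAT and 37.1 and 32.8 CPM in NWAT but did not pass the joint test (edgeR adjusted p = 0.439), its SWAT libraries lying below and above all others.

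Cdh19, a type II cadherin known from Schwann cell precursors, had 6.36 and 9.81 CPM in SWAT, 2.57 and 2.52 CPM in EWAT and 1.43 and 2.09 CPM in NWAT. Both SWAT libraries were above all others, with 1.67 ± 0.26 SWAT over EWAT (edgeR adjusted p = 0.000420) and 2.20 ± 0.27 SWAT over NWAT (0.000147), and both calls held throughout. Schwann and glial markers were also highest in SWAT, at a summed 33.4 to 39.1 CPM in SWAT, 8.87 to 10.6 CPM in EWAT and 18.4 to 22.9 CPM in NWAT over 6 genes, of which 3 of 4 tested were higher SWAT over EWAT. Mbp averaged 22.2 ± 0.755 CPM in SWAT, 4.42 ± 0.106 CPM in EWAT and 15.8 ± 2.67 CPM in NWAT, Foxd3 was at 0 in every library, and the markers' part in the level of Cdh19 was not tested. Cdh5, the VE-cadherin of endothelial junctions, had 6.80 and 6.33 CPM in SWAT, 4.16 and 4.99 CPM in EWAT and 3.24 and 3.93 CPM in NWAT, with 0.87 ± 0.20 SWAT over NWAT (edgeR adjusted p = 0.00945). The call of Cdh5 SWAT over NWAT ended in some alternatives, at an adjusted p of 0.0933 without NWAT replicate 1, 0.0697 without SWAT replicate 1 and 0.0604 on an FPKM scale. The 9 endothelial markers, none at 0 in every library, summed to 243 to 281 CPM in SWAT, 200.3 to 233 CPM in EWAT and 347 to 367 CPM in NWAT, most of it Tek, which averaged 241 ± 25.7 CPM in SWAT, 198 ± 29.1 CPM in EWAT and 344 ± 14.7 CPM in NWAT. SWAT over NWAT 2 of these markers were higher and 1, Tek, was lower, with a median log2 fold change of 0.66. EWAT over NWAT 2 were higher and 1, again Tek, was lower, with a median of 0.48. SWAT over EWAT 2 were higher and 0 lower. Their part in the levels of Cdh5 and Pcdh12 was not tested.

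Of the 12 non-clustered protocadherins 11 were tested and 8 passed the joint test, with SWAT over EWAT 4 higher and 2 lower, SWAT over NWAT 3 higher and 1 lower and EWAT over NWAT 2 higher and 5 lower. That was 72.7% in the joint test, against 41.7% of all genes. In the 3 pairs it was 54.5%, 36.4% and 63.6%, against 36.7%, 18.9% and 27.3% of all genes. Pcdh15 was not tested. The most abundant per length were Pcdh18 and Pcdh19, delta2 protocadherins. Pcdh18 stood at 16.0 ± 0.141 FPKM in SWAT, 13.8 ± 1.69 FPKM in EWAT and 23.1 ± 2.85 FPKM in NWAT and Pcdh19 at 14.3 ± 1.75 FPKM in SWAT, 12.8 ± 2.68 FPKM in EWAT and 15.6 ± 1.44 FPKM in NWAT (SD, n = 2). Pcdh18 had 92.8 and 91.2 CPM in SWAT, 74.3 and 60.8 CPM in EWAT and 126 and 107 CPM in NWAT, with -0.78 ± 0.12 EWAT over NWAT (edgeR adjusted p = 0.000649) and 0.45 ± 0.12 SWAT over EWAT (0.0150). The call of Pcdh18 SWAT over EWAT ended in some alternatives, at an adjusted p of 0.0535 without EWAT replicate 2, 0.0816 without SWAT replicate 1, 0.0688 without SWAT replicate 2, 0.166 with library totals alone and 0.181 to 0.243 on the FPKM scales. Pcdh19 had 149 and 174 CPM in SWAT, 139.9 and 96.5 CPM in EWAT and 164 and 144 CPM in NWAT but did not pass the joint test (edgeR adjusted p = 0.0896).

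The 55 clustered protocadherins lie on chromosome 18 and share sequence. Of the 50-base windows of a gene's longest protein-coding transcript in GENCODE, 48.2% to 61.1% occurred in another gene of the alpha cluster, 20.1% to 54.6% in the gamma cluster and 1.504% to 11.99% in the beta cluster, and none among the non-clustered protocadherins. Of their estimated counts above 0, 98.3% were not whole numbers, against 18.1% for the non-clustered genes. The split among single genes is therefore uncertain, above all in the alpha and gamma clusters. Summed over the cluster, alpha protocadherins stood at 1.88 ± 0.176 CPM in SWAT, 1.37 ± 0.0375 CPM in EWAT and 3.05 ± 0.474 CPM in NWAT (SD, n = 2). Beta protocadherins summed to 71.8 ± 7.14 CPM in SWAT, 59.5 ± 5.32 CPM in EWAT and 54.0 ± 0.0753 CPM in NWAT. Gamma protocadherins summed to 1153 ± 12.5 CPM in SWAT, 895 ± 20.1 CPM in EWAT and 928 ± 17.2 CPM in NWAT. The gamma cluster took most of the clustered counts in every depot.

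On the log2 scale the Pcdha cluster sum was -1.15 ± 0.27 EWAT over NWAT (edgeR adjusted p = 0.00928), the Pcdhb cluster sum 0.41 ± 0.11 SWAT over NWAT (0.0210) and the Pcdhg cluster sum 0.37 ± 0.11 SWAT over EWAT (0.0230). The adjusted p of the alpha sum was 0.0853 without NWAT replicate 1. That of the beta sum was 0.116 without NWAT replicate 1, 0.123 without NWAT replicate 2, 0.209 without SWAT replicate 2, 0.142 with library totals alone and 0.158 to 0.188 on the FPKM scales. That of the gamma sum was 0.0562 without EWAT replicate 2, 0.0995 without SWAT replicate 1, 0.0829 without SWAT replicate 2, 0.336 with library totals alone and 0.253 to 0.3001 on the FPKM scales.

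Within the gamma cluster, 11 of 22 genes passed the joint test, where 41.7% of all genes did. SWAT over EWAT 10 were higher and 2 lower, and SWAT over NWAT 4 were higher and 0 lower. EWAT over NWAT 1 was higher and 3 lower. In the 3 pairs 54.5%, 18.2% and 18.2% were called, against 36.7%, 18.9% and 27.3% of all genes. Pcdhgc3, a C-type gene, held 62.7% ± 1.39 in SWAT, 61.6% ± 1.48 in EWAT and 59.7% ± 0.934 in NWAT of the gamma FPKM, and at 139 ± 4.43 FPKM in SWAT, 125 ± 3.52 FPKM in EWAT and 122 ± 1.22 FPKM in NWAT it was above Itgb1 in SWAT and below it in EWAT and NWAT. It had 719 and 730.4 CPM in SWAT, 572 and 535 CPM in EWAT and 557 and 555 CPM in NWAT, with 0.39 ± 0.11 SWAT over EWAT (edgeR adjusted p = 0.0167) and 0.38 ± 0.11 SWAT over NWAT (0.0308). SWAT over EWAT the adjusted p became 0.0677 without SWAT replicate 1, 0.0828 without SWAT replicate 2, 0.251 with library totals alone and 0.148 to 0.193 on the FPKM scales, and SWAT over NWAT it was 0.145 without NWAT replicate 1, 0.158 without NWAT replicate 2, 0.114 without SWAT replicate 1, 0.140 without SWAT replicate 2, 0.190 with library totals alone and 0.124 to 0.152 on the FPKM scales. Pcdhgb8 had 4.44 and 5.27 CPM in SWAT, 2.48 and 1.93 CPM in EWAT and 2.29 and 1.89 CPM in NWAT, with 1.14 ± 0.25 SWAT over EWAT (edgeR adjusted p = 0.00386), which held throughout, and 1.21 ± 0.25 SWAT over NWAT (0.00491), which became 0.0520 without NWAT replicate 2 and 0.0501 without SWAT replicate 2. RefSeq lists Pcdhgb8 as a transcribed pseudogene, so its RNA need not stand for a surface receptor. Pcdhga11 had 46.6 and 38.3 CPM in SWAT, 24.4 and 25.9 CPM in EWAT and 37.7 and 31.3 CPM in NWAT, with 0.75 ± 0.13 SWAT over EWAT (edgeR adjusted p = 0.000865), which held throughout. Pcdhga1 ran the other way, at 4.003 and 5.38 CPM in SWAT, 7.66 and 7.37 CPM in EWAT and 5.01 and 3.88 CPM in NWAT, with -0.68 ± 0.20 SWAT over EWAT (edgeR adjusted p = 0.0224), which became 0.0524 without EWAT replicate 1, 0.0520 without EWAT replicate 2, 0.173 without SWAT replicate 1 and 0.0612 in DESeq2. Pcdhgc4 had 11.3 and 16.0 CPM in SWAT, 8.69 and 8.99 CPM in EWAT and 6.20 and 8.98 CPM in NWAT, with 0.85 ± 0.20 SWAT over NWAT (edgeR adjusted p = 0.0141), which became 0.114 without NWAT replicate 1, 0.148 without SWAT replicate 2 and 0.0837 to 0.154 on the FPKM scales.

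**Figure D5:**
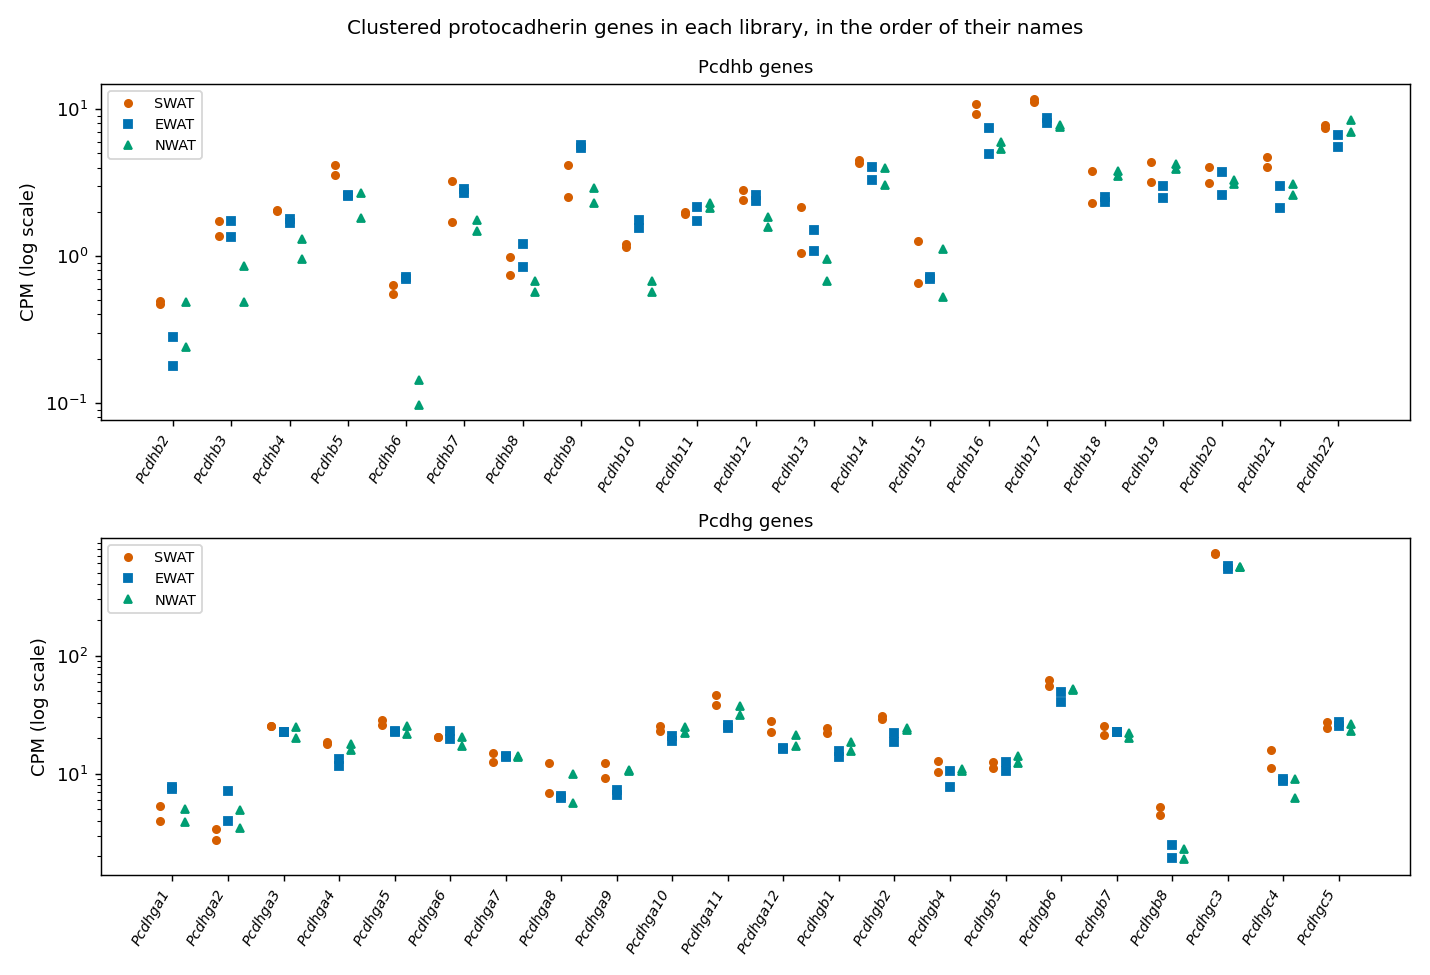
CPM per library (log axis) of the Pcdhb genes (top) and Pcdhg genes (bottom) in SWAT, EWAT and NWAT, with 1 point per library. Pcdhgc3 lies at 535 to 730.4 CPM, above every other Pcdhg gene in every library.

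Within the beta cluster, 7 of 20 tested genes passed the joint test, a smaller share than the 41.7% of all genes. SWAT over EWAT 3 were higher and 1 lower, and SWAT over NWAT 3 were higher and 0 lower. EWAT over NWAT 4 were higher and 0 lower. The share called was also smaller in each of the 3 pairs than the 36.7%, 18.9% and 27.3% of all genes. The calls went both ways SWAT over EWAT, while every call against NWAT was of a lower level in NWAT. Of the 7 genes, 6 had their lowest mean in NWAT. Pcdhb9 had 2.52 and 4.17 CPM in SWAT, 5.74 and 5.44 CPM in EWAT and 2.29 and 2.91 CPM in NWAT, with 1.10 ± 0.26 EWAT over NWAT (edgeR adjusted p = 0.00794), which became 0.0782 without NWAT replicate 1. Pcdhb16 had 9.32 and 10.9 CPM in SWAT, 7.47 and 4.94 CPM in EWAT and 5.39 and 6.02 CPM in NWAT, with 0.83 ± 0.20 SWAT over NWAT (edgeR adjusted p = 0.0137), which became 0.101 without NWAT replicate 1, 0.0539 without NWAT replicate 2, 0.114 without SWAT replicate 2 and 0.0732 to 0.123 on the FPKM scales. Pcdhb21, whose exons overlap those of Pcdhb22, had 4.72 and 4.01 CPM in SWAT, 2.99 and 2.11 CPM in EWAT and 3.10 and 2.62 CPM in NWAT, with 0.77 ± 0.25 SWAT over EWAT (edgeR adjusted p = 0.0299), which became 0.164 without EWAT replicate 2, 0.160 without SWAT replicate 1, 0.0605 without SWAT replicate 2, 0.0961 with library totals alone, 0.0781 in DESeq2 and 0.0714 to 0.105 on the FPKM scales. Of the alpha genes 2 of 12 were tested, and Pcdha4, named after its values were seen, had 0 and 9.89 counts in SWAT, 0 counts in both EWAT libraries and 19.9 and 20.8 counts in NWAT.

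Partners of these receptors were read from 5 lists of other genes. Over the lists together 63 genes were tested, and there were SWAT over EWAT 15 higher and 13 lower, SWAT over NWAT 12 higher and 10 lower and EWAT over NWAT 11 higher and 16 lower. In either direction that was 44.4%, 34.9% and 42.9% of them in these 3 pairs, against 36.7%, 18.9% and 27.3% of all genes. With library totals alone, 26 were lower SWAT over EWAT, where 5082 of all 13694 genes were, and 21 lower SWAT over NWAT, where 3199 of all genes were. Of the catenins and cadherin partners, 3 of 9 tested passed the joint test, where 41.7% of all genes did. There were SWAT over EWAT 3 higher and 0 lower, SWAT over NWAT 3 higher and 1 lower and EWAT over NWAT 0 higher and 2 lower. The median log2 fold changes of the tested genes were -0.08, -0.14 and -0.18 in these pairs. Afdn, the gene of the junction linker afadin, averaged 79.3 ± 3.52 CPM in SWAT, 36.1 ± 4.03 CPM in EWAT and 61.6 ± 1.27 CPM in NWAT, with 1.13 ± 0.11 SWAT over EWAT (edgeR adjusted p = 8.79e-06). Jup, plakoglobin, averaged 132 ± 12.9 CPM in SWAT, 71.1 ± 6.80 CPM in EWAT and 103 ± 3.50 CPM in NWAT. The catenin gene Arvcf averaged 38.5 ± 2.70 CPM in SWAT, 20.8 ± 0.0498 CPM in EWAT and 24.6 ± 2.40 CPM in NWAT. Of the integrin-binding tetraspanins, membrane organizers of integrins, 7 of 7 tested passed the joint test, with SWAT over EWAT 0 higher and 4 lower, SWAT over NWAT 3 higher and 1 lower and EWAT over NWAT 7 higher and 0 lower. Cd151, a partner of laminin-binding integrins, averaged 59.5 ± 1.07 CPM in SWAT, 171 ± 11.3 CPM in EWAT and 108 ± 3.28 CPM in NWAT, with -1.53 ± 0.10 SWAT over EWAT (edgeR adjusted p = 4.65e-07). Cd82 averaged 10.8 ± 1.41 CPM in SWAT, 14.9 ± 0.731 CPM in EWAT and 3.42 ± 0.313 CPM in NWAT, with 2.12 ± 0.16 EWAT over NWAT (edgeR adjusted p = 2.52e-06), and Tspan4 averaged 34.3 ± 0.148 CPM in SWAT, 41.3 ± 2.47 CPM in EWAT and 21.8 ± 0.224 CPM in NWAT. Among the 7, Cd53 is a gene of leukocytes.

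Of the integrin activators and focal adhesion proteins, 12 of 26 tested passed the joint test, with SWAT over EWAT 5 higher and 4 lower, SWAT over NWAT 2 higher and 4 lower and EWAT over NWAT 3 higher and 7 lower. Tln2, a talin that links integrins to actin, averaged 41.7 ± 1.09 CPM in SWAT, 13.3 ± 1.56 CPM in EWAT and 18.4 ± 1.45 CPM in NWAT, with 1.65 ± 0.12 SWAT over EWAT (edgeR adjusted p = 9.44e-07). The tensin gene Tns3 ran the other way at 11.6 ± 3.29 CPM in SWAT, 35.8 ± 6.13 CPM in EWAT and 17.6 ± 0.345 CPM in NWAT. Actn1, an alpha-actinin, stood at 22.3 ± 6.12 CPM in SWAT, 17.6 ± 2.34 CPM in EWAT and 8.06 ± 0.538 CPM in NWAT. Of the non-laminin integrin ligands, 10 of 14 tested passed, with SWAT over EWAT 5 higher and 3 lower, SWAT over NWAT 4 higher and 1 lower and EWAT over NWAT 1 higher and 4 lower. Thbs1, thrombospondin, averaged 188 ± 22.3 CPM in SWAT, 1595 ± 365 CPM in EWAT and 1321 ± 2.73 CPM in NWAT. Vtn, vitronectin, averaged 48.1 ± 0.717 CPM in SWAT, 62.1 ± 2.84 CPM in EWAT and 15.2 ± 1.54 CPM in NWAT. Tgfbi, a matrix protein induced by TGF-beta, averaged 192 ± 18.8 CPM in SWAT, 52.5 ± 7.89 CPM in EWAT and 91.1 ± 11.2 CPM in NWAT. Of the cadherin-type partners, 4 of 7 tested passed, with SWAT over EWAT 2 higher and 2 lower, SWAT over NWAT 0 higher and 3 lower and EWAT over NWAT 0 higher and 3 lower. Fat4, a giant cadherin of planar polarity, was low in EWAT at 126 ± 0.625 CPM in SWAT, 25.6 ± 7.24 CPM in EWAT and 122 ± 16.0 CPM in NWAT, with 2.30 ± 0.17 SWAT over EWAT (edgeR adjusted p = 4.23e-06). Its ligand gene Dchs1 averaged 21.3 ± 0.858 CPM in SWAT, 33.9 ± 1.28 CPM in EWAT and 48.2 ± 3.99 CPM in NWAT. The calsyntenin gene Clstn2 averaged 2.99 ± 0.349 CPM in SWAT, 8.29 ± 1.42 CPM in EWAT and 6.76 ± 0.498 CPM in NWAT.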

How the data were processed

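Bulk RNA-seq libraries of sorted adipose-derived stem cells were used. The authors deposited estimated counts and, in another table, FPKM for each gene symbol, per the file headers. GRCm38.p6 is the genome build, and Cell Ranger and Seurat are listed with no role, per the submitters' processing notes; not given in the sources used here were the aligner, the counter and its strand setting. Each of both tables holds 2 columns that match no label, which were left out.

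Counts were rounded to whole numbers, filtered with filterByExpr (minimum count 10, total 15; 13694 genes kept), scaled by TMM and fitted in edgeR 4.0.16 (R 4.3.3) with 1 coefficient per depot, robust dispersions and 3 residual degrees of freedom. Quasi-likelihood tests were adjusted over all genes by the Benjamini-Hochberg method. SE is the absolute log2 fold change over the root of F. Alternatives were DESeq2 1.42.0, its size factors, library totals alone, no count filter, a minimum count of 50, no robust estimation, a replicate block, each library left out, and limma 3.58.1 on deposited FPKM with pseudocounts of 1 and 0.1, and 1 unfiltered. The scripts were tested on simulated data. Replicate numbers are not stated to mark shared animals, so no pairing was used.

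The members and lists were chosen with earlier results of these data known. Named were the 24 members of widest range among depots that pass the joint test with mean log2 CPM of 1 or more, the 8 of highest mean FPKM, those called in every pair, the blood and vessel cell members and the cluster sums, and per partner list the 3 of widest range among those passing with mean log2 CPM of 2 or more. Other members are said to be named after their values were seen or serve to complete a class. All 114 symbols matched the RefSeq annotation.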

Additional observations from a re-analysis of the deposited data

How the results depend on the processing

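No call of a member changed direction. Calls kept in every alternative that tested them were 21 of 47 in the joint test, 19 of 42 SWAT over EWAT, 7 of 22 SWAT over NWAT and 7 of 28 EWAT over NWAT. With library totals alone the median of all genes moved by -0.24 on the log2 scale SWAT over EWAT, by -0.19 SWAT over NWAT and by 0.05 EWAT over NWAT. With 2 libraries per depot, their number limits the precision.

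With library totals alone, 20 members were higher SWAT over EWAT (1344 of all 13694 genes) and 11 lower SWAT over NWAT (3199 of all genes). Partner genes were lower SWAT over EWAT in 26 cases (5082 of all genes) and lower SWAT over NWAT in 21 (3199 of all genes). On log2 (FPKM + 1), log2 (FPKM + 0.1) and unfiltered log2 (FPKM + 1), members higher SWAT over EWAT numbered 16, 17 and 15, higher SWAT over NWAT 9, 9 and 8, lower SWAT over NWAT 8, 9 and 8 and lower EWAT over NWAT 10, 10 and 10, with joint counts of 30, 30 and 32. On the same scales, partner genes lower SWAT over EWAT numbered 24, 24 and 24, lower SWAT over NWAT 16, 17 and 13, higher SWAT over EWAT 10, 10 and 9, higher SWAT over NWAT 10, 10 and 7 and lower EWAT over NWAT 12, 12 and 9. These scales tested 14206, 14206 and 17750 genes in all. Of these, 1198, 1223 and 1121 were higher and 4813, 4845 and 4331 lower SWAT over EWAT. SWAT over NWAT 688, 684 and 569 were higher and 2700, 2750 and 2080 lower. DESeq2 gave 6 members lower SWAT over EWAT and 6 higher EWAT over NWAT, and the stricter count filter 5 higher EWAT over NWAT. The cause of these shifts was not tested.

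The joint adjusted p of the alpha cluster sum was 0.0581 in DESeq2. With library totals alone that of the beta sum was 0.189 and that of the gamma sum 0.473. On the FPKM scales the beta sum gave 0.172, 0.171 and 0.199 and the gamma sum 0.418, 0.424 and 0.352.

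Without 1 library in turn, the joint count of members was 34 to 46. SWAT over EWAT there were 22 to 33 higher and 5 to 10 lower, SWAT over NWAT 8 to 21 higher and 1 to 6 lower and EWAT over NWAT 4 to 9 higher and 10 to 19 lower. Partner genes were 12 to 15 higher and 7 to 15 lower SWAT over EWAT, 9 to 11 higher and 5 to 15 lower SWAT over NWAT and 7 to 15 higher and 10 to 17 lower EWAT over NWAT. The joint adjusted p was 0.0265 to 0.112 for the alpha sum, 0.00395 to 0.221 for the beta sum and 0.0256 to 0.158 for the gamma sum. The counts that moved by over 1.5 times were members lower SWAT over EWAT 5 without SWAT replicate 1, 7 without SWAT replicate 2, 7 without EWAT replicate 2, members higher SWAT over NWAT 10 without SWAT replicate 1, 8 without SWAT replicate 2, 10 without NWAT replicate 1, 9 without NWAT replicate 2, members lower SWAT over NWAT 1 without SWAT replicate 1, 2 without SWAT replicate 2, members higher EWAT over NWAT 4 without NWAT replicate 1, 5 without NWAT replicate 2, members lower EWAT over NWAT 10 without NWAT replicate 1, partner genes lower SWAT over EWAT 7 without SWAT replicate 1, partner genes lower SWAT over NWAT 6 without SWAT replicate 1, 5 without SWAT replicate 2, 5 without NWAT replicate 1, 6 without NWAT replicate 2, partner genes higher EWAT over NWAT 7 without NWAT replicate 1 and partner genes lower EWAT over NWAT 10 without NWAT replicate 1. A lone library left in a depot is assumed to vary like the others.

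With the replicate block, 45 members passed the joint test, with 31 higher and 11 lower SWAT over EWAT, and the joint adjusted p of the alpha, beta and gamma sums was 0.0181, 0.0298 and 0.0256. Deviations of same-numbered libraries correlated at 0.00055, 0.0375 and 0.110 between depots, and no pairing was read from them.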
